A study of Mus musculus with 2 samples.

Results

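Primitive endoderm-like cells were the cells that carried 5 or more unique molecular identifiers (UMIs, each standing for 1 captured transcript) of the type IV collagen gene Col4a1 together with at least 2 of the genes Sox17, Gata4, Gata6, Foxa2, Dab2, Cubn and Amn. They were sought among cells with at most 26000 UMIs, at most 5000 genes and 0.5 to 10% mitochondrial UMIs. The cells were thus chosen by measured levels of Col4a1 and of these 7 genes. The rule found 205 of 14252 such cells, namely 42 of 7812 on day 4 and 163 of 6440 on day 6. The cells came from mouse eye organoids, aggregates of embryonic stem cells that form optic vesicles in culture, and were profiled with the 10x Genomics 3′ v2 kit. All cells of both days descended from 1 embryonic stem cell line, in which a green fluorescent protein gene replaces 1 copy of Rax (genotype Rax-GFP knockin Het), and all organoids were grown with Matrigel, itself a basement membrane extract. The groups were culture day 4, when the eye field forms, and culture day 6, when vesicles begin to bulge, with no other treatment. Each day was 1 library that pooled 3 experiments, so day and library cannot be told apart and no test across samples was possible.

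Primitive endoderm is the lineage that parts from the epiblast in the blastocyst and lines the yolk sac. Its parietal branch secretes Reichert's membrane, a thick basement membrane of laminin and type IV collagen, while its visceral branch takes up material by endocytosis and secretes carriers of lipid, retinol and thyroid hormone. Embryonic stem cells can give rise to such cells, often at the surface of aggregates, and Gata6, Gata4 and Sox17 are the transcription factors that mark them.

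The collagen gene that chose the cells lies head to head with its partner Col4a2 on chromosome 8, where the annotated genes (GENCODE, GRCm38) overlap by 22 bases. Both windows of 250 bases before to 50 bases after the RefSeq starts (GRCm38.p6) are shown, each 5′ to 3′ on its own gene's strand, because Col4a1 and Col4a2 are the tightest pair described further on. The capitals mark the 78 bases that the windows share, in which each is the reverse complement of the other.
Col4a1, chr8:11312777-11313076, minus strand: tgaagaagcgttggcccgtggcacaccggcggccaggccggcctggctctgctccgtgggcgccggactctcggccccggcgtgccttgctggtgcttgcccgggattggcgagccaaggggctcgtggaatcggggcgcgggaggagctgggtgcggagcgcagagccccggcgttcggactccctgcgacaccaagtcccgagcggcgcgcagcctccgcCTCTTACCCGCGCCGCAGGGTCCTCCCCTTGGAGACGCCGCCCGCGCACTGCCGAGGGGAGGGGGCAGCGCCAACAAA
Col4a2, chr8:11312555-11312854, plus strand: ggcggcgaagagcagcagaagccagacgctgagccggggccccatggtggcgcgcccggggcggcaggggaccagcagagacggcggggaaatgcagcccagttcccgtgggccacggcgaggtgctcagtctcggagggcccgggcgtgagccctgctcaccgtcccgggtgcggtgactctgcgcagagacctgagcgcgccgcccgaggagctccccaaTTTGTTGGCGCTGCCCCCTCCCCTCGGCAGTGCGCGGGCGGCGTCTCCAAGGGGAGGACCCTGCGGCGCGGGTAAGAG

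Since 2 of the genes in the rule, Gata4 and Gata6, encode factors that bind GATA motifs, 4 such motifs were searched on both strands in the 32851 windows of the RefSeq table. AGATAA was held by 11.2% of the windows, the motif TGATAA by 9.05%, the motif AGATAG by 8.95% and the motif TGATAG by 7.29%. Any of the 4 was held by 29.8%. The upstream window of Dab2, the endocytic adaptor of the rule, held TGATAA on its own strand and the motif AGATAA on the other, both in capitals here.
Dab2, chr15:6299539-6299838, plus strand: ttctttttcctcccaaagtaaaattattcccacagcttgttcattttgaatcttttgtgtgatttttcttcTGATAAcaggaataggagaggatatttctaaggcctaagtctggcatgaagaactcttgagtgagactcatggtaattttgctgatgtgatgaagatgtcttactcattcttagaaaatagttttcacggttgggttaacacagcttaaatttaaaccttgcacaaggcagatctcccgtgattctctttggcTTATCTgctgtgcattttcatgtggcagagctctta
The window of Apoa1, a carrier gene used further on, held AGATAG and also TGATAA, both on the other strand, while those of Col4a1, Col4a2, Cubn, Amn and Sparc held none of the 4. The windows of Srgn, Rbp4, Lamb1, Nid1 and Slc2a1, genes named further on, held none either. Genes with several starts differed between windows: a further window of Dab2 held none, 1 of 3 windows of Foxa2 held AGATAA and 1 of 3 windows of Apoe held AGATAG. A match is a description of letters and not a binding site. Sox17, Gata4 and Lama1 were not in the table.

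Members made up 0.538% of the day 4 cells (exact 95% interval 0.388 to 0.726) and 2.53% of the day 6 cells (2.16 to 2.94), a ratio of shares of 4.71. Here and below, intervals cover counting error only, not differences between cultures or libraries. Member depth ran from 5033 to 25565 UMIs on day 4 with a median of 12713.5, and from 5133 to 25867 on day 6 with a median of 10800, beside medians of 11401 and 12659 in the other cells. Members held more mitochondrial UMIs than other cells, with medians of 4.43% against 3.04% on day 4 and 4.54% against 2.49% on day 6. Their ribosomal protein share was lower, at 25.5% against 35.2% and 27.6% against 32.5%. What these shares contribute to the ratios below was not tested, apart from totals without those genes.

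Most members met the rule with room to spare. Of the 7 genes, 5 or more were found in 33 of the 42 day 4 members (78.6%) and in 112 of the 163 day 6 members (68.7%), all 7 in 12 and 26, and only 2 in 1 and 3. Col4a1 ran from 5 to 96 UMIs with a median of 23.5 on day 4, and from 5 to 225 with a median of 27 on day 6. By contrast, 91.7% and 90.1% of the other cells held no UMI of any of the 7 genes, and 90.3% and 80.1% held none of Col4a1. Just inside the limit, the 4 and 11 members with 5 to 9 Col4a1 UMIs held Sparc at 4955 and 7171 CPM (the UMIs of a gene per 1000000 UMIs of the summed cells). Just outside it, the 2 and 6 cells with 3 or 4 Col4a1 UMIs and 2 or more of the genes held Sparc at 552 and 3200 CPM.

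The labels call the cells retina progenitors, and the members were low in the markers of that type. Pax6, Six6, Rax and Lhx2 were at 0 in all 42 day 4 members. None of these genes reached the level limit given below on day 4, so their 0 hardly sets the members apart from the other day 4 cells. On day 6 Pax6 was at 27.8 CPM in members and 256 CPM in other cells, and Six6 at 6.46 against 116 CPM, while Lhx2 and Rax were at 16.9 and 10.4 CPM in members. Lhx2 and Rax were called lower than in the other day 6 cells too, by the rule given below. At least 1 UMI of Six3, Six6, Rax, Pax6 or Lhx2 was found in 3 day 4 members (7.14%, against 21.9% of other cells) and in 47 day 6 members (28.8%, against 87.1%). In 18 of those 47 it was 3 or more UMIs. Without the members that held such a UMI, 1221 genes were called higher and 487 lower on day 4, and 1031 and 637 on day 6, by the rule given below. Of the barcode sequences, 91 stood in both files, among them those of 3 members, and no barcode was a member on both days.

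The genes of the rule chose the cells, so their levels are a description. Per cell the values are given as CP10k, the UMIs of a gene per 10000 UMIs of that cell. Col4a1 ran from 2.88 to 99.1 CP10k in day 4 members with a median of 23.6, and from 3.42 to 155 with a median of 24.99 on day 6. Dab2 was the most widely found of the 7 genes, in 38 and 160 members, at 967 and 675 CPM. Among the endoderm transcription factors Gata6 was at 208 and 195 CPM, Sox17 at 185 and 186, Gata4 at 179 and 145 and Foxa2 at 111 and 88.9, while each of them lay under 0.55 CPM in the other cells. Foxa2, found in 28 and 100 members, was the scarcest of the 4. Cubn and Amn encode the cubilin receptor and the amnionless protein that carries it to the cell surface. Each was found in 32 of the 42 day 4 members, though not always in the same ones, whereas 99 of the 163 day 6 members held Cubn and 105 held Amn.

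**Figure D1:**
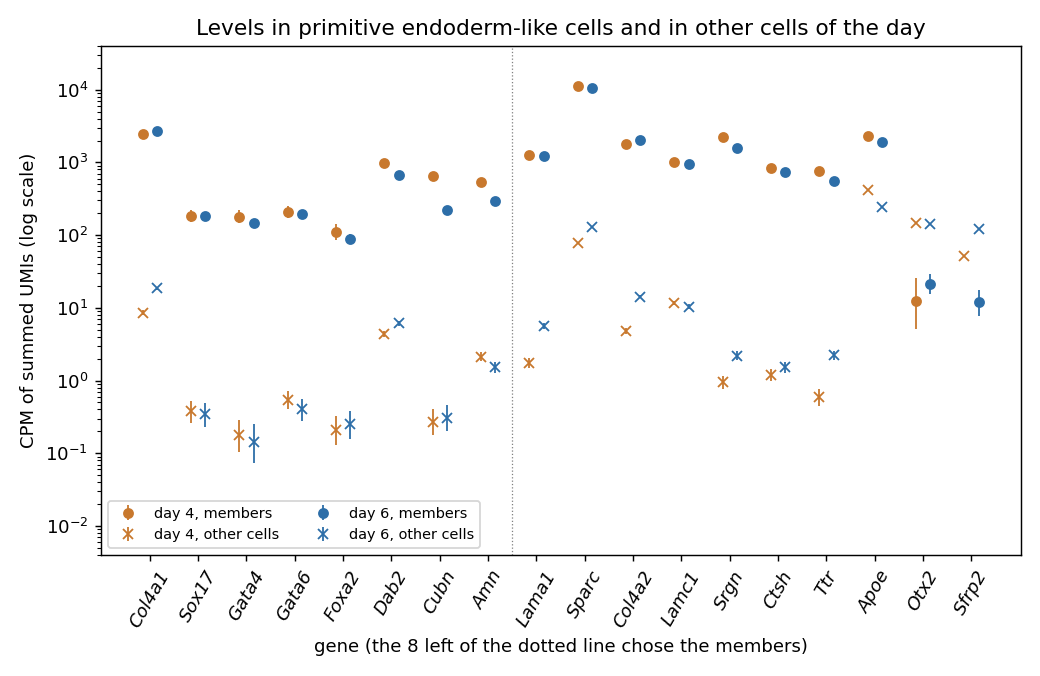
Levels in CPM of summed UMIs (log axis) of 18 genes in members (circles) and in the other cells of the day (crosses), with day 4 in orange and day 6 in blue. Bars are exact Poisson 95% intervals, which cover counting error only, and Sfrp2 in day 4 members is not drawn because it was at 0. The members stand above the other cells in 16 genes, 8 of which chose them, and below them in Otx2 and Sfrp2.

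Genes outside the rule were then compared between members and the other cells of the same day, to describe the state of the cells across all genes. A gene was called higher or lower when the CPM ratio was at least 2-fold with an exact conditional 95% interval that left out 1, among genes whose mean of the 2 CPM was 20 or more. On day 4, 1198 of 4970 genes were called higher (24.1%) and 465 lower (9.36%). On day 6, 931 of 5163 were called higher (18.0%) and 494 lower (9.57%). With totals that leave out mitochondrial and ribosomal protein genes the day 4 calls split into 1316 higher and 874 lower. Both days shared 753 higher genes, which were 62.9% of the day 4 calls and 80.9% of the day 6 calls, and 209 lower genes, which were 44.9% and 42.3%. The same cells gave the rule its values, so these ratios describe the members and test nothing, and a gene that reached 20 CPM only through the members had to differ. The median log2 ratio over all genes tested was 0.14 on day 4 and -0.01 on day 6, against which the medians below are to be read.

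The basement membrane list summed to 17027 against 262 CPM on day 4 and to 16712 against 353 CPM on day 6. Sparc made up most of these sums in the members. Of the 20 genes in the list, 11 reached the level limit on day 4 and 12 on day 6, of which 10 were called higher on each day and 1 and 2 lower, with median log2 ratios of 5.80 and 4.61. Sparc, a collagen-binding glycoprotein, ran from 19.6 to 451 CP10k with a median of 83.8 in day 4 members, and from 18.4 to 355 with a median of 107 on day 6. The lowest day 4 member thus lay above the highest other day 4 cell, at 14.8 CP10k, but on day 6 the groups overlapped, with a highest other cell at 136 CP10k. Summed, Sparc was at 11211 against 79.0 CPM on day 4, 142-fold (137 to 147), and at 10613 against 128 CPM on day 6, 83.1-fold (81.2 to 85.1).

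Lama1 encodes the laminin α1 chain, the chain of the embryo's earliest basement membranes. It was found in 41 of 42 day 4 members, from 0 to 37.6 CP10k with a median of 11.5, and in 159 of 163 day 6 members, from 0 to 51.9 with a median of 10.4. No other cell exceeded 3.36 CP10k on day 4 or 7.47 on day 6, so the groups overlapped only at the lower end of the members. Its summed level of 1254 against 1.74 CPM was 720-fold higher (607 to 857) on day 4, and 1234 against 5.56 CPM was 222-fold higher (201 to 245) on day 6. The partner chains of the same laminin trimer were higher too. Lamb1 was 55.8-fold higher (50.9 to 61.0) on day 4 and 51.1-fold (48.1 to 54.2) on day 6, and Lamc1 88.9-fold (80.2 to 98.5) and 91.6-fold (84.5 to 99.3).

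Col4a2, which forms the type IV collagen trimer with Col4a1, ran from 2.88 to 74.9 CP10k in day 4 members with a median of 16.01, and from 0 to 124 with a median of 18.1 on day 6. Only 1 of the 205 members held none of it. Its ratio was 373 (333 to 417) on day 4 and 142 (133 to 152) on day 6. Nid1, which links laminin to collagen, was higher by 66.4-fold (48.6 to 89.8) and 116-fold (97.9 to 139). The proteoglycan gene Hspg2 (13.8 and 11.7-fold), Nid2 (8.10 and 11.7-fold), Smoc1 (8.47 and 8.30-fold) and Agrn (5.78 and 3.59-fold) rose less far. Col18a1, which encodes another basement membrane collagen, went the other way. It was represented by 1 UMI in day 4 members, at a ratio of 0.0378 (0.000957 to 0.211), and stood at 0.224 (0.142 to 0.337) on day 6.

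Genes that fold and export matrix proteins were higher as well. Of 28 genes in that list 25 reached the level limit on each day, and 23 were called higher on day 4 and 16 on day 6, none lower, with medians of 2.13 and 1.69. Serpinh1, the collagen chaperone HSP47, was found in all 205 members, from 5.76 to 65.7 CP10k with a median of 14.7 on day 4 and from 3.06 to 69.7 with a median of 17.8 on day 6. It was 47.1-fold higher (43.7 to 50.8) and 20.1-fold higher (19.3 to 20.9). Enzymes that hydroxylate collagen followed it, with the lysyl hydroxylase Plod2 at 30.9 and 31.2-fold and the prolyl hydroxylase subunit P4ha2 at 27.8 and 18.3-fold. Kdelr3, a receptor that returns proteins to the endoplasmic reticulum, was at 81.7 and 39.5-fold. The general chaperone Hspa5 was 4.27-fold higher (3.91 to 4.66) on day 4 and within the limits at 1.59 on day 6.

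**Figure D2:**
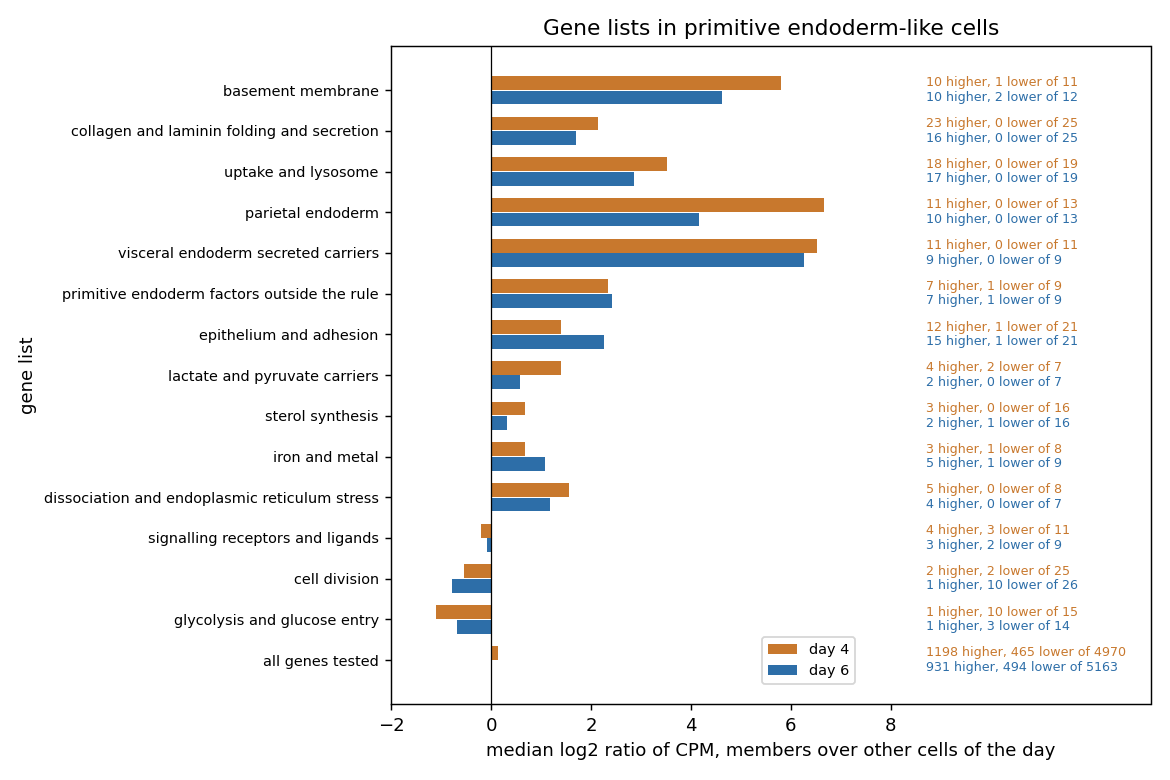
Median log2 ratio of CPM, members over other cells of the day, for 14 gene lists and for all genes tested, with day 4 in orange and day 6 in blue. The text at the right gives the genes called higher and lower among those whose mean reached 20 CPM. The matrix, parietal, carrier and uptake lists have medians of 2.85 or more, whereas glycolysis stands at -1.11 and -0.69. Genes hardly found in other cells entered a list only through the members, so their calls were fixed.

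Markers of both yolk sac branches were present in the same population. The parietal list had 11 of 13 genes higher on day 4 and 10 of 13 on day 6, with medians of 6.67 and 4.16, out of 18 listed. Srgn, which encodes the proteoglycan serglycin, was found in all 205 members, from 1.73 to 68.1 CP10k with a median of 18.8 on day 4 and from 1.74 to 51.5 with a median of 15.9 on day 6. With each cell thinned to 5000 UMIs, 100% and 99.4% of members held a Srgn UMI, against 0.407% and 0.876% of other cells. Summed, it was at 2227 against 0.955 CPM (2332-fold, 1884 to 2918) and at 1600 against 2.20 CPM (726-fold, 626 to 847). The parathyroid hormone receptor gene Pth1r, a marker of parietal differentiation, was 182-fold (151 to 218) and 149-fold higher (129 to 171). Fxyd3, Cryab, Tfpi and the plasminogen activator gene Plat were called higher on both days. Vim, which parietal cells are known to gain, was within the limits, at 0.975 (0.624 to 1.45) and 1.23 (1.01 to 1.48).

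The visceral list of secreted carriers had 11 of 11 measured genes higher on day 4 and 9 of 9 on day 6, out of 20 found, with medians of 6.52 and 6.25. A gene near 0 in other cells was measured only where members raised its mean to 20 CPM, so its call was fixed. The same holds for such genes of every list, and these counts and medians are a description. Ttr, which carries thyroid hormone and retinol-binding protein, was found in 28 of 42 and 112 of 163 members. It ran from 0 to 30.5 CP10k with a median of 4.66 on day 4 and from 0 to 79.3 with a median of 1.88 on day 6. It was thus uneven among the members, and its summed ratios were 1306 (987 to 1758) and 254 (218 to 298). The day 6 ratio depends in part on 1 other cell, which held 109 Ttr UMIs. That cell had 4 rule genes and 4 Col4a1 UMIs and so just missed the rule. Spink1, a secreted trypsin inhibitor, was at 2285 CPM in day 4 members and 929 CPM in day 6 members, 1423-fold (1202 to 1694) and 76.3-fold (70.7 to 82.5) above the other cells. Apoe, a lipid carrier that other cells also made at 413 and 245 CPM, was 5.65-fold (5.35 to 5.98) and 7.71-fold higher (7.44 to 7.98). Rbp4, the retinol carrier, was found in only 17 and 60 members and reached 37.3 and 138 CP10k in the highest of them. Apoa1, the main protein of high density lipoprotein, was found in only 4 and 14 members, at 21.5 and 28.8 CPM, and 1 day 6 member held 35 of the 58 UMIs. Without that cell the day 6 level was 11.5 CPM.

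Uptake and lysosome genes were higher almost throughout, with 18 of 19 measured genes called on day 4 and 17 of 19 on day 6, none lower, at medians of 3.51 and 2.85. Ctsh, a lysosomal protease, was at 845 against 1.20 CPM (706-fold, 574 to 874) and at 730 against 1.54 CPM (475-fold, 396 to 573). Lgmn, another lysosomal protease, was 83.9 and 43.8-fold higher, and Ctsl 29.4 and 11.0-fold. The receptor gene Lrp2, whose protein megalin works with cubilin, was 11.4-fold (9.94 to 13.0) and 7.03-fold higher (6.35 to 7.77). Its chaperone gene Lrpap1 was at 38.5 and 26.3-fold. Folr1, a folate receptor gene, stood at 43.6-fold (35.1 to 53.8) on day 4 and 7.24-fold (6.11 to 8.54) on day 6, a difference between the days described below.

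Transcription factors outside the rule gave a mixed picture. Of 16 listed factors 9 reached the level limit on each day, of which 7 were called higher and 1 lower. Foxq1 was 565-fold (350 to 944) and 341-fold higher (205 to 602), Klf4 41.2 and 46.6-fold, and Creb3l2, a factor that acts on secretory genes, 42.3 and 16.6-fold. Otx2, a factor of the visceral endoderm and of the forebrain, was lower, at 0.0842 (0.0339 to 0.174) and 0.151 (0.109 to 0.204). Sox7 and Hnf4a, which mark parietal and visceral endoderm, stayed under the level limit. Their levels in members were 39.5 and 30.3 CPM for Sox7 and 19.7 and 11.9 CPM for Hnf4a, whereas neither exceeded 0.107 CPM in other cells.

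Among signalling genes the receptor Pdgfra, which primitive endoderm expresses, was found in 29 and 137 members, at 145 against 0.126 CPM (1153-fold, 626 to 2324) and at 185 against 1.17 CPM (159-fold, 127 to 200). Flt1, which encodes a receptor of vascular endothelial growth factor, was 31.3-fold and 135-fold higher. Fgfr1 was lower, at 0.0999 (0.0272 to 0.256) and 0.296 (0.189 to 0.441), and so was Id3, a target of bone morphogenetic protein signalling, at 0.197 and 0.129. Of the 10 listed genes of the anterior visceral endoderm, the signalling region that patterns the head, Cer1, Gsc and Cyp26c1 were at 0 in the members of both days. The Wnt antagonist Sfrp1, the only one of the 10 to be called, was lower at 0.371 (0.208 to 0.613) and 0.256 (0.206 to 0.314). Only 1 of the 10 genes reached the level limit on day 4 and 2 on day 6. Hhex, at 30.5 and 33.3 CPM in members, stayed under it on both days. Dkk1, at 34.1 and 28.8 CPM in members, was under it on day 4 and within the limits on day 6.

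Epithelial genes set the members further apart on day 6 than on day 4 in 4 of the genes named here. The tight junction genes Cldn7 and Cldn6 were 5.12 and 7.33-fold higher on day 4 and 35.3 and 30.2-fold higher on day 6. In the members Cldn7 was at 312 and then 271 CPM, while its level in the other cells went from 61.0 to 7.67 CPM. Cdh1, which encodes E-cadherin, was within the limits at 1.29 (0.990 to 1.66) on day 4 and 8.28-fold higher (6.74 to 10.1) on day 6. Epcam followed the same order, at 0.591 (0.463 to 0.743) and 3.61 (3.15 to 4.13). The difference between the days was not tested for any of them. The keratin gene Krt8 was 20.9 and 22.1-fold higher. Over the list 12 of 21 measured genes were higher and 1 lower on day 4, and 15 of 21 higher and 1 lower on day 6, with medians of 1.39 and 2.25.

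Because the study asked how glucose use bears on eye formation, genes of glucose entry and glycolysis are given for the members too. Of 15 measured genes 10 were lower on day 4 and 1 was higher, and of 14 on day 6, 3 were lower and 1 was higher, with medians of -1.11 and -0.69. The glucose transporter genes split. Slc2a1 (GLUT1) stood in day 4 members at 84.3 against 410 CPM (ratio 0.206, 0.151 to 0.274) and in day 6 members at 146 against 346 CPM (ratio 0.422, 0.375 to 0.473). Slc2a3 (GLUT3) was higher, at 866 against 318 CPM (2.73-fold, 2.49 to 2.98) and at 574 against 223 CPM (2.58-fold, 2.43 to 2.73). Ldhb was at ratios of 0.122 and 0.158 and Eno1 at 0.339 and 0.336. Ldha, which makes lactate, was at 954 against 2058 CPM (0.464, 0.425 to 0.505) on day 4 and within the limits at 963 against 1743 CPM (0.552, 0.528 to 0.577) on day 6. Slc16a1, a lactate and pyruvate transporter gene, was 5.84-fold (4.79 to 7.05) and 6.05-fold higher (5.42 to 6.74), and its partner Bsg 2.64 and 2.63-fold. Of the 7 genes of that list, all measured, 4 were higher and 2 lower on day 4, and 2 were higher and none lower on day 6. The lower ones were Slc16a3, which encodes a lactate exporter, at 0.365 (0.242 to 0.528), and Pdk1, an inhibitor of pyruvate entry into oxidation, at 0.168 (0.0674 to 0.346).

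Genes of the cell cycle were mostly within the limits on day 4. Of 25 measured genes 2 were higher and 2 lower, and on day 6, of 26, 1 was higher and 10 were lower, with medians of -0.55 and -0.80. Ccnd1, a D-type cyclin, was lower on both days, at 0.128 (0.0417 to 0.300) and 0.111 (0.0622 to 0.183). Cdkn1a, which encodes an inhibitor of cyclin-dependent kinases, was 5.46 and 4.48-fold higher. The proliferation marker Mki67 was at 75.3 against 60.9 CPM on day 4 and 77.0 against 73.4 CPM on day 6, both within the limits. Insig1, a sensor of sterol supply, was 7.06-fold (5.99 to 8.27) and 9.55-fold higher (8.85 to 10.3), beside 13 of 16 sterol genes within the limits on each day.

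Some stress and metal genes were higher in the members. Of the list on stress from dissociation and in the endoplasmic reticulum, 5 of 8 measured genes were higher on day 4 and 4 of 7 on day 6, none lower, with the early response gene Jun and Herpud1, a gene of the unfolded protein response, on both days. Of the iron and metal list 3 of 8 were higher and 1 was lower on day 4, and 5 of 9 higher and 1 lower on day 6, with the zinc importer gene Slc39a4 and the heme oxygenase gene Hmox1 higher on both. Tfrc, which encodes the transferrin receptor, was the lower one, at 0.157 and 0.492.

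Markers of most other cell types were scarce in the members, with the pluripotency list as the exception. No gene of the lists for mesoderm and mesenchyme, endothelium and blood, floor plate, neural crest or trophoblast reached the level limit on either day. The endothelium and blood list summed to 41.2 against 7.42 CPM on day 4 and 25.8 against 5.03 CPM on day 6, and 8 of its 12 genes, globins and Cldn5 among them, were at 0 in members of both days. The definitive endoderm and gut list summed to 34.1 against 67.3 CPM and 41.2 against 33.0 CPM, with Cxcr4 and Mixl1 at 0. The pluripotency list summed to 2539 against 1471 CPM and 1607 against 594 CPM, of which Dppa5a alone made up 2315 and 1498 CPM in members. Of that list Pou5f1 was lower on day 4, at 0.136 (0.0879 to 0.201), and within the limits on day 6, while Dppa5a was 3.10 and 3.15-fold higher.

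At the ends of the ranking stood genes that no list held. Among genes whose mean reached 50 CPM and that were called on both days, Glipr1, Aqp8, Pga5, Epas1, Serpinb6c, Lgals2 and Spock1 were among the 10 with the highest day 6 ratio. Pga5, a pepsinogen gene, was found in 37 and 138 members, from 0 to 40.9 CP10k with a median of 6.43 and from 0 to 70.2 with a median of 4.74. It was 1141-fold (910 to 1447) and 452-fold higher (383 to 537). Epas1, which encodes a hypoxia-inducible factor, was 306-fold and 415-fold higher, and the water channel gene Aqp8 4101-fold (1709 to 12860) and 670-fold (463 to 1004), the former against 5 UMIs in all other day 4 cells. At the low end was the Wnt modulator Sfrp2, at 0 UMIs in day 4 members, a ratio of 0.103 with 3 UMIs in place of the 0. On day 6 Sfrp2 was at 0.0985 (0.0631 to 0.147). The imprinted gene Mest stood at 0.0891 and 0.133, the retinoic acid binding protein gene Crabp2 at 0.0630 and 0.138, and Fabp5 at 0.112 and 0.153.

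The members of the 2 days were then set side by side, to see how the cells differed as the vesicle began to form. Few genes passed the call: 76 of 5226 were higher on day 6 (1.45%) and 96 were lower (1.84%), with a median log2 ratio of -0.03. With totals that leave out mitochondrial and ribosomal protein genes the split was 159 higher and 128 lower. The matrix and factor genes were within the limits. Sparc stood at a day 6 over day 4 ratio of 0.947 (0.920 to 0.974), Lama1 at 0.984 (0.905 to 1.07), Col4a2 at 1.14 (1.06 to 1.22), Sox17 at 1.01 (0.807 to 1.26) and Gata6 at 0.936 (0.759 to 1.16). Sox17 and Gata6 helped to choose the members of both days, so their ratios are a description only. Of 10 basement membrane genes measured only Nid1 was called, at 2.26 (1.73 to 2.99), where the other cells gave 1.29. With cells thinned to 5000 UMIs the Nid1 ratio was 1.66 and no longer called.

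Some carrier genes and 2 genes of uptake were lower in the day 6 members. Cubn, which helped to choose the cells, went from 640 CPM on day 4 to 223 CPM on day 6 (ratio 0.348, 0.302 to 0.401), and Amn was within the limits at 0.561 (0.488 to 0.647). Of 20 measured genes of the uptake and lysosome list the median was -0.51 and only 1 was called. It was Folr1, at 0.415 (0.325 to 0.532), whereas in the other cells its ratio was 2.50, from levels under the limit of 20 CPM. Of 13 carrier genes measured 5 were lower and none higher, with a median of -0.49. Spink1 was at 0.407 (0.379 to 0.437) and Apom, a small lipid carrier, at 0.329 (0.242 to 0.448), while in the other cells they were at 7.58 and 2.37. In the other cells both genes lay under the level limit, and only 1 carrier gene was measured there, so these ratios rest on low levels. Clu, a secreted chaperone, was at 0.231 (0.184 to 0.288) and moved to 0.463 with the study's filter, which leaves out cells under 20% ribosomal protein UMIs, and to 0.409 without the members that held an eye field UMI. Ttr was within the limits at 0.734 (0.656 to 0.822), and Rbp4 at 1.78 (1.50 to 2.12).

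A few stress and metal genes were called as well. Of 10 measured genes of the iron and metal list 2 were lower, Mt1 and Mt2, and 1 was higher, Tfrc at 3.05 (1.33 to 8.60), and of 10 of the stress list only Nupr1, a stress response gene, was lower, at 0.0989 (0.0429 to 0.210) and found in 5 and 3 members. The zinc-binding metallothioneins Mt1 and Mt2 were at 0.308 (0.290 to 0.327) and 0.277 (0.250 to 0.307) in members, beside 0.142 and 0.112 in the other cells, so that both populations were lower on day 6. Hspb1, a small heat shock protein gene, was at 0.231 (0.198 to 0.270), beside 0.664 in the other cells.

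Among the genes that were higher on day 6, several were abundant in the surrounding cells. Mest was at 21.5 CPM in day 4 members and 227 CPM in day 6 members, a ratio of 10.6 (5.99 to 20.6), while in the other cells it was at 242 and 1715 CPM, a ratio of 7.10. Prtg, a gene of the early neural plate, was at 4.76 (2.53 to 10.1) beside 3.41, and Crabp2 at 11.1 (3.70 to 54.5) beside 5.04. Without the members that held a UMI of an eye field gene, Mest was at 3.89 and Prtg at 2.14, both still called higher. The part that RNA of other cells has in these ratios was not tested. Hmga2, a chromatin protein gene, was at 2.72 (1.62 to 4.87) beside 7.23, and Bmp2, which encodes a secreted signal, at 2.40 (1.20 to 5.44). Ramp2, a partner of peptide hormone receptors, was at 2.13 (1.49 to 3.15) in members and at 0.402 in other cells. With cells thinned to 5000 UMIs Hmga2 was at 2.70 and no longer called, and with 10 or more Col4a1 UMIs asked of a member Ramp2 was just under 2-fold.

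**Figure D3:**
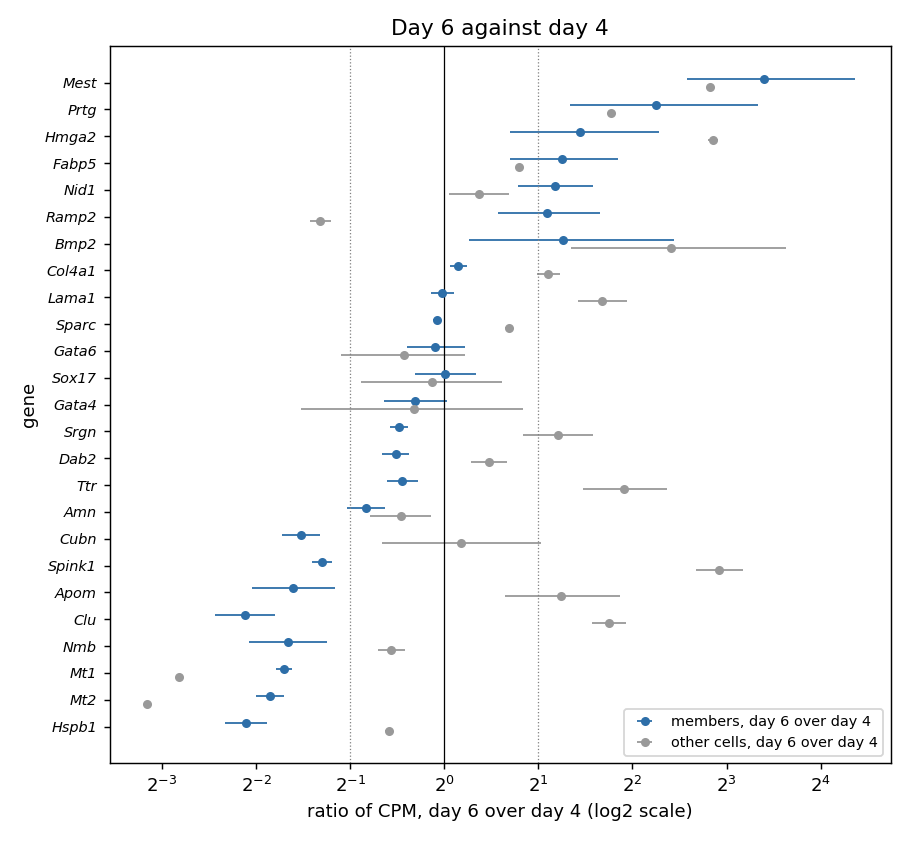
Ratio of CPM, day 6 over day 4 (log2 axis), of named genes in members (blue) and in the other cells (grey), with exact 95% intervals that cover counting error only. Dotted lines mark 2-fold. Lama1, Sparc, Gata6 and Sox17 of the members lie near 1, Spink1, Apom and Clu lie below 0.5 where the other cells lie above 2, and Mest lies above 2 in both. Spink1, Apom and Clu were under the level limit in the other cells. Gata6 and Sox17 were among the genes that chose the members.

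To compare members high in matrix genes with members high in carrier genes, matrix-high members were those above the median of all 205 in both Lama1 (10.6 CP10k) and Sparc (104 CP10k). Carrier-high members were above it in both Ttr (2.10 CP10k) and Apoa1 (0 CP10k). This gave 14 matrix-high and 4 carrier-high members on day 4 and 58 and 12 on day 6. No member was both, and 24 and 93 were neither. Since Apoa1 was found in only 18 of 205 members, it decided who was carrier-high. With 4 carrier-high members, day 4 was not compared this way. As an alternative that serves both days, all members were ranked by the log2 ratio of Lama1 and Sparc to Ttr and Apoa1, and the upper 68 and lower 68 of the ranking were taken. These comprised 12 matrix-high and 16 carrier-high members on day 4 and 56 and 52 on day 6. Carrier-high members were deeper, with median UMIs of 14771 against 9523 on day 6, and in the ranking 11041 against 9947 on day 6 and 17322.5 against 8988.5 on day 4. The part of depth in the differences was not tested beyond the subsets cut on thinned cells, given with the alternatives.

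**Figure D4:**
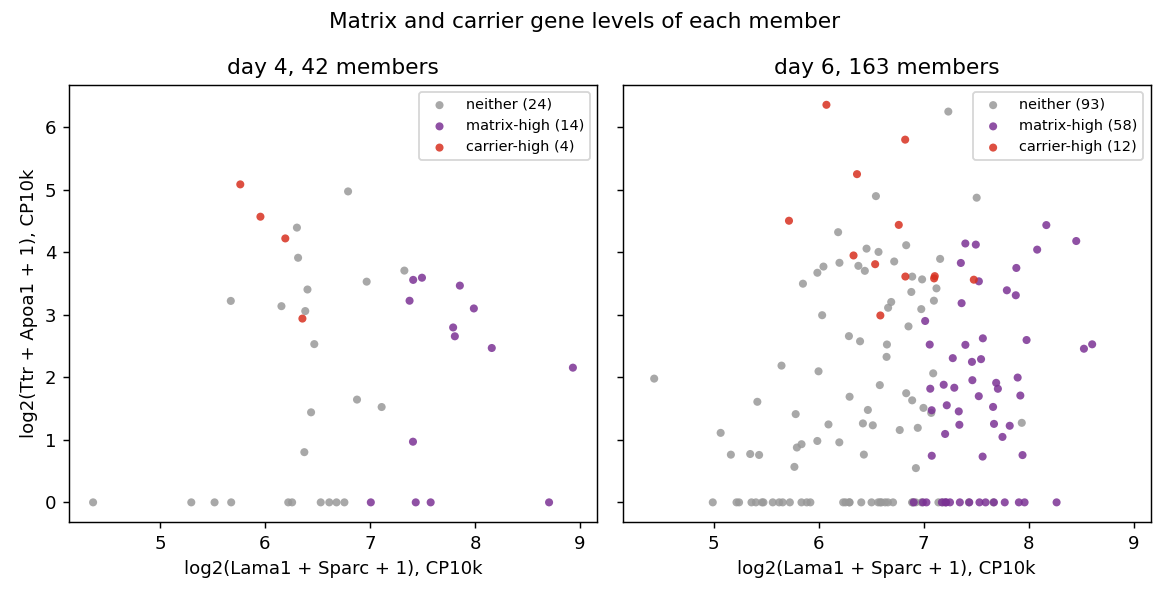
Each point is 1 member, by the log2 of its summed Lama1 and Sparc level (CP10k, plus 1) and of its summed Ttr and Apoa1 level (CP10k, plus 1). Day 4, with 42 members, is at the left and day 6, with 163, at the right. Matrix-high members are purple, carrier-high members red and the rest grey, and no gap parts the subsets.

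On day 6, 211 of 5325 genes were higher in matrix-high members (3.96%) and 241 lower (4.53%). In the ranking 188 of 5286 were higher (3.56%) and 248 lower (4.69%) on day 6, and 156 of 5194 higher (3.0%) and 119 lower (2.29%) on day 4. The days of the ranking shared 21 of the higher genes (13.5% of the day 4 and 11.2% of the day 6 calls) and 45 of the lower genes (37.8% and 18.1%), while 5 were higher on day 4 and lower on day 6 and 1 the reverse. Lama1, Sparc, Ttr and Apoa1 defined the subsets and are not results here.

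The other laminin chains went with the matrix-high members on day 6. Lamc1 ran from 4.39 to 42.8 CP10k with a median of 15.98 in the 58 matrix-high members, and from 0 to 7.14 with a median of 3.06 in the 12 carrier-high members. The ranges overlapped only between 4.39 and 7.14, and the summed levels of 1694 and 311 CPM gave a ratio of 5.45 (4.14 to 7.33). In the ranking Lamc1 was 2.70-fold higher (2.37 to 3.08) on day 6 and within the limits at 1.74 (1.41 to 2.14) on day 4. Nid1 was called in all comparisons, at 4.79 (2.94 to 8.33), and in the ranking at 2.86 (2.22 to 3.71) on day 6 and 2.18 (1.22 to 3.91) on day 4. Col4a2 was 2.59-fold (2.27 to 2.98) and Lamb1 2.57-fold higher (2.15 to 3.09), and in the day 6 ranking both fell within the limits, at 1.66 and 1.76. Of 9 basement membrane genes measured 6 were higher in the day 6 comparison and 2 in the day 6 ranking, beside medians of 1.29 and 0.71 for the list.

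Some genes of the list that folds and exports matrix proteins were higher too. Of 28 measured 7 were higher in the day 6 comparison, 5 in the day 6 ranking and 2 in the day 4 ranking, none lower, with medians of 0.75, 0.46 and 0.40. P4ha2 was found in 46 of 58 matrix-high and 3 of 12 carrier-high members, and its ratio was 13.9 (4.68 to 68.3), with 4.00 (2.84 to 5.75) and 2.69 (1.62 to 4.51) in the day 6 and day 4 rankings. Serpinh1 was within the limits throughout, at 1.65, 1.58 and 1.76. Parietal markers differed among themselves. Fst, which encodes the activin inhibitor follistatin, was found in 37 of 58 matrix-high members at up to 9.65 CP10k, against 1 UMI in 1 of 12 carrier-high members, at a ratio of 35.1 with an interval of 6.18 to 1396. In the rankings it was at 5.82 (3.64 to 9.72) on day 6 and 5.82 (2.61 to 14.2) on day 4. Snai1, a factor of the transition to a migratory state, was found in 16 matrix-high and 0 carrier-high members, a ratio of 2.34 with 3 UMIs in place of the 0. It reached the level limit only through the matrix-high members, so its call was fixed. Vim was 4.21-fold higher (1.56 to 15.9) and Cryab 4.12-fold (2.59 to 6.95). Srgn did not part the subsets, at 1.25 (1.10 to 1.42), 0.994 (0.913 to 1.08) and 1.17 (1.01 to 1.35).

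Carrier genes other than the defining pair moved together to the carrier-high side. Of 12 measured on day 6, 10 were lower in matrix-high members and 1, Clu, was higher, with a median of -1.83 in which genes at 0 in a subset are set at the floor. In the rankings 9 of 12 were lower on day 6, and 7 of 11 lower and 1 higher on day 4. Rbp4 ran from 0 to 138 CP10k with a median of 21.6 in the carrier-high members, 10 of 12 of which held it. In the matrix-high members it ran from 0 to 13.6 with a median of 0, and 20 of 58 held it. Its ratio was 0.0487 (0.0381 to 0.0617), with 0.0162 (0.00901 to 0.0268) and 0.0489 (0.00995 to 0.146) in the rankings of day 6 and day 4. Apom was at 0.0834 (0.0384 to 0.167) and Spink1 at 0.282 (0.244 to 0.325), with 0.294 and 0.267 in the rankings. Apoe was at 0.301 (0.272 to 0.333) but within the limits in both rankings, at 0.505 and 0.640. Apob was at 0 UMIs in the matrix-high members, a ratio of at most 0.0312 at the floor, and was found in 4 carrier-high members. Of the 30 Apob UMIs of all day 6 members 22 were in 1 carrier-high member, so that this ratio rests mostly on 1 cell.

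Some epithelial and lysosomal genes were higher in the carrier-high members. Cldn7 was found in all 12 of them, from 4.53 to 12.3 CP10k, and in 30 of 58 matrix-high members, from 0 to 17.0, at a ratio of 0.170 (0.127 to 0.226), with 0.222 and 0.220 in the rankings. Cdh1 was at 0.378 (0.213 to 0.679) and Epcam at 0.468 (0.310 to 0.714). Over the epithelial list 10 of 23 genes were lower in matrix-high members and none higher. The day 6 ranking gave 7 of 22 lower and 2, Anxa3 and Anxa2, higher, and the day 4 ranking 2 of 22 lower. Of the uptake and lysosome list 5 of 20 were lower in the day 6 comparison and in its ranking, and 3 of 19 in the day 4 ranking, none higher. The proteases Ctsc and Ctsh were at 0.189 (0.131 to 0.273) and 0.372 (0.319 to 0.433), and both were called lower in the rankings of both days. The rule genes did not all go one way: Gata6 was 2.68-fold and Col4a1 2.33-fold higher in matrix-high members, with 2.05 and 1.65 in the day 6 ranking, which left Col4a1 within the limits, while Cubn was at 0.350 and Amn at 0.346. The glucose transporter genes Slc2a1, at 0.256 (0.173 to 0.379), and Slc2a3, at 0.335 (0.272 to 0.413), were both higher in the carrier-high members of day 6, and on day 4 the ranking left them within the limits, at 0.828 and 0.606.

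Genes of cell division tended to the matrix-high side on day 6, where 7 of 24 were higher and 2 lower. Top2a was at 2.42 (1.36 to 4.68) and Mki67 at 3.09 (1.12 to 11.8), from 13 and 4 UMIs in the carrier-high members. In the day 6 ranking none of the 24 was called. The contractile regulator gene Cald1 was 19.1-fold higher against 1 UMI, with an interval of 3.31 to 764, and 8.21-fold (4.25 to 17.7) and 8.73-fold (3.73 to 23.7) in the rankings. Plac8, named for its placental expression, was at 0.0823 (0.0629 to 0.107), with 0.130 and 0.302 in the rankings.

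**Figure D5:**
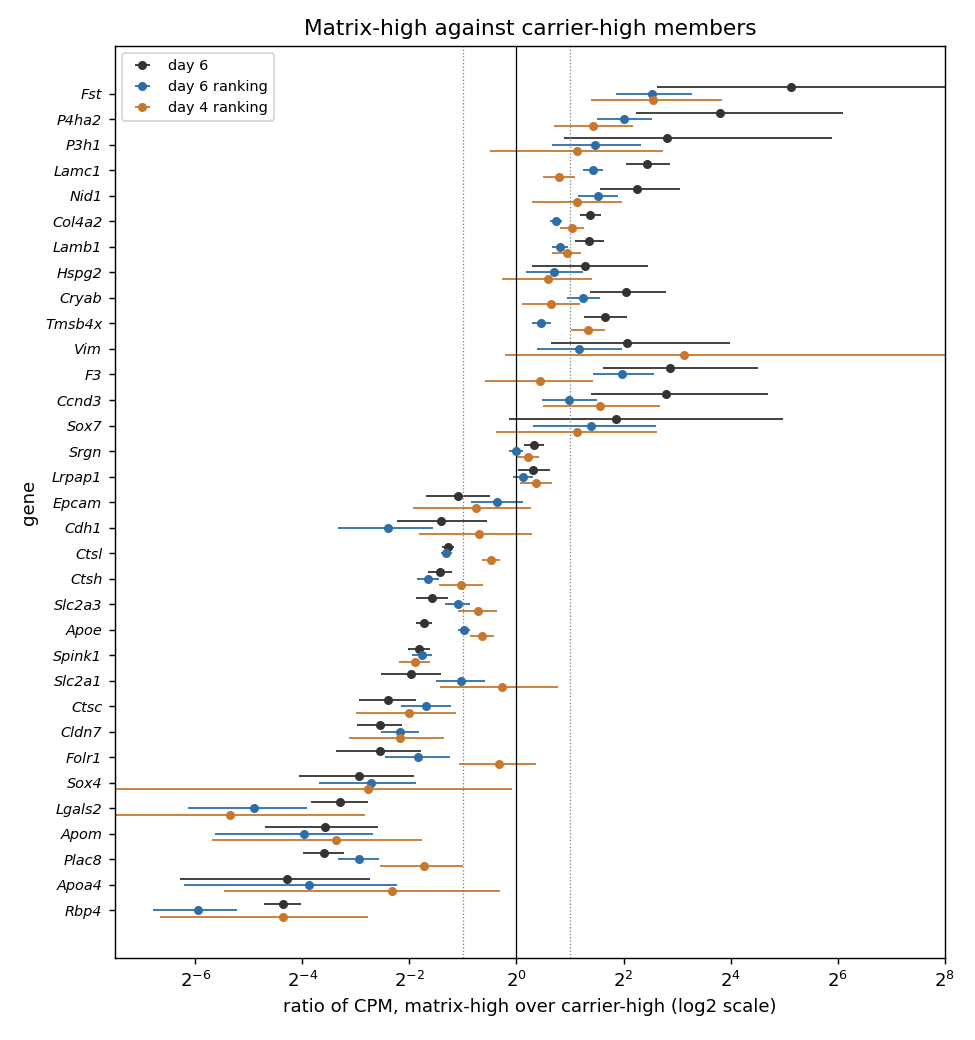
Ratio of CPM, matrix-high over carrier-high members (log2 axis), for the day 6 comparison (black, 58 against 12 cells) and the rankings of day 6 (blue, 56 against 52) and day 4 (orange, 12 against 16), with exact 95% intervals. Dotted lines mark 2-fold, and the ends of the widest intervals, such as those of Fst and Lgals2, run past the axis. Fst, P4ha2 and Nid1 stand above 2 in all 3, and Rbp4, Apom, Spink1 and Cldn7 below 0.5.

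Across the members the matrix genes rose and fell together. Spearman's rho of CP10k between Col4a1 and Col4a2, the gene pair of the shared window, was 0.83 over the 42 day 4 members and 0.89 over the 163 day 6 members. It was 0.80 and 0.66 between Sparc and Col4a1, 0.65 and 0.70 between Lama1 and Col4a1 and 0.66 and 0.55 between Lama1 and Sparc. Among the uptake genes of the rule it was 0.69 and 0.49 between Cubn and Amn and 0.77 and 0.48 between Cubn and Dab2. Ttr and Rbp4 were at 0.47 and 0.53. Between Lama1 and the carrier genes the values were -0.12 and -0.11 for Ttr, -0.22 and -0.40 for Apoe and 0.19 and -0.21 for Rbp4. Uptake and carrier genes were not apart in the same way, since Amn was at 0.53 and 0.66 with Apoe but at -0.33 and -0.0025 with Rbp4. Fst, on the matrix side, was at 0.47 and 0.53 with Lama1 and at -0.31 and -0.45 with Apoe. The cells of a day share a library and differ in depth, and the counts are sparse, so these values are a description.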

How the data were processed

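Each library was 1 sample, with 9114 barcodes on day 4 and 7446 on day 6, which is below the filtered cell numbers of the study, whose own matrices may thus differ from these files. The authors deposited the UMI counts of each cell as raw whole numbers on mm10, without normalization. Cell Ranger 2.0.1 and Seurat 2.3.4 are the versions given in the notes of the submitters on processing. The methods of the paper name later versions of both. Members, lists (25) and the rule for named genes were chosen with earlier results of these data known. Named are the rule genes and markers, up to 4 measured members of each list with the largest day 6 ratio, and the 10 highest and 10 lowest genes of each comparison. Other genes were named after their values were seen. UMIs were summed over cells and scaled to CPM, with exact Poisson, conditional binomial and Clopper-Pearson intervals (scipy 1.17.1, Python 3.11.15). A group at 0 was set at 3 UMIs. With 1 library a day no p-value was computed. Thinning to 5000 UMIs left out 157 day 4 cells and 0 day 6 cells, none a member. Scrublet (scanpy 1.11.5) marked 1 and 0 cells and so had not worked, and doublets were left in. Free RNA was not removed. The ratio step was tested on simulated data, and the list step was not. Alternatives are given in the closing section.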

Additional observations from a re-analysis of the deposited data

Results flagged for a closer look

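Cpe, which encodes a carboxypeptidase that trims peptide hormones, was the only gene of 4677 tested on both days that was called in opposite directions between members and other cells. On day 4 it was higher in members, at 37.7 against 18.2 CPM, a ratio of 2.07 (1.28 to 3.18). On day 6 it was lower, at 8.44 against 45.4 CPM, a ratio of 0.186 (0.108 to 0.298). The difference between the days was not tested, since each day is 1 library.

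Barcodes that met the gene rule but lay outside the limits on UMIs, genes and mitochondrial share numbered 4 on day 4 and 20 on day 6, of which 4 and 18 were above the UMI limit. Their median depths were 34401.5 and 27755.5 UMIs. Summed, they held Sparc at 6846 and 7534 CPM and Col4a1 at 849 and 1453 CPM. They enter none of the comparisons above.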

How the results depend on the processing

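Ratios rest on 1 library a day, so no replicate could be left out. No paired analysis was possible because each day has 1 library and no test was run. Of 132 counts and shares under the alternatives, 119 were the same as the value reported (within 1.5 times for counts). The share of members ran from 0.470 to 0.563% on day 4 and from 2.20 to 2.62% on day 6. A level limit of 50 CPM in place of 20, which tests fewer genes, left 545 higher and 215 lower genes in members on day 4, 409 and 233 on day 6, 12 and 35 between the days' members, and 136 and 137 between matrix-high and carrier-high members. Totals without mitochondrial and ribosomal protein genes gave 874 lower genes in day 4 members and 159 higher genes in day 6 over day 4 members. Thinning to 5000 UMIs gave 145 lower in the latter. Ranking in place of medians gave 16 and 52 carrier-high members. For these moves other than the level limit and the ranking the cause was not tested. Subsets cut on thinned cells, chosen after seeing the data, held 13 and 3 members on day 4 and 51 and 8 on day 6, with 172 genes higher and 280 lower on day 6. Of 2082 named gene ratios 1840 were the same, 239 moved and 3 reversed: Gkn1 and Gkn2, day 6 over day 4 members, at 1.91 and 1.37 with the study's filter added, and Gkn2, matrix-high over carrier-high, at 0.411 in the ranking. Of 1764 ratios under the alternatives that belong to a called ratio 43, from 33 called ratios, were no longer called in the same direction, many of them under the level limit of 50 CPM. Depth limits what a count of 0 in a cell says: at these depths a member without a UMI of a scarce gene such as Foxa2 is not shown to lack it.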

Other observations

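The gastrokine genes Gkn1 and Gkn2, known from the stomach lining, were concentrated in few members. On day 4, 11 of 42 members held a Gkn2 UMI, and 1 of them held 189 of the 323 UMIs, with 84.2% in the top 3 cells. On day 6, 37 of 163 held one, and the top 3 held 68.4% of 285 UMIs. At 5 or more Gkn2 UMIs stood 8 members on day 4 and 11 on day 6, of which 8 and 8 also held Gkn1. No other cell held more than 1 Gkn2 UMI on day 4 or 2 on day 6.

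Members also made up all 5 of the day 4 cells with under 20% ribosomal protein UMIs, and 6 of the 11 such cells on day 6. Against the remaining members of the day, the 5 day 4 cells held Gkn2 at 5723 against 102 CPM, Clu at 2091 against 157 CPM, Sparc at 29924 against 9474 CPM and Cubn at 0 against 700 CPM. On day 6 the 6 cells held Gkn2 at 213 against 139 CPM, Sparc at 14584 against 10498 CPM, Pga5 at 2892 against 770 CPM and Lama1 at 656 against 1250 CPM. The study's filter leaves these cells out.

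Afp, the fetal serum protein gene that later visceral endoderm expresses, was almost limited to 1 cell of the series. Of 121 Afp UMIs in day 6 cells within the limits, 107 were in that cell, which also held 61 Apoa1, 109 Ttr, 75 Rbp4 and 13 Apob UMIs among 13753. With 4 rule genes and 4 Col4a1 UMIs it lay 1 UMI short of the rule and is not a member. The members held 6 Afp UMIs on day 6 and 1 on day 4.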
